A study of Mus musculus with 6 samples.

Results

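The genes described here encode 10 proteins that work with the RNA exosome: the nucleases Dis3 and Dis3l, the helicases Mtrex and Skiv2l, and the adaptor proteins Ttc37, Wdr61, Zcchc7, Zcchc8, Rbm7 and Zfc3h1. They were chosen by name for these roles, with earlier results of these data known. All 10 were found once among the 21887 protein-coding genes of the RefSeq table for GRCm38, the assembly also called mm10. The study mapped chromatin by CUT&Tag, which releases DNA fragments where an antibody sits, in OG2X129 mouse embryonic fibroblasts under conditions of chemical reprogramming to pluripotent cells. Acetylated H3K27 (H3K27ac), found at promoters and enhancers in use, was mapped after CD (2 samples) and after the solvent control DMSO (2 samples), and Flag-tagged Rxra, a retinoid X receptor, was mapped with a Flag antibody in cells that overexpressed it (2 samples). The series title names CD3254, an RXR agonist, and the labels do not spell out CD. The labels give no day of reprogramming, no embryonic age, no statement on CD or DMSO in the Flag-Rxra cells, and no statement that replicates were separate cultures.

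The RNA exosome is a ring-shaped complex that degrades or trims RNA from its 3′ end. The ring itself has little activity, and RNA is cut by nucleases attached to it. In the nucleus the helicase encoded by Mtrex unwinds RNA and hands it to the exosome, and it joins with Zcchc7 in the TRAMP complex, with Zcchc8 and Rbm7 in the NEXT complex, and with Zfc3h1 in the PAXT connection, each of which brings other classes of RNA. In the cytoplasm the Ski complex of Skiv2l, Ttc37 and Wdr61 has the corresponding part.

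The data were 4 peak lists. Each Flag-Rxra replicate had a list (28243 and 45999 peaks on chromosomes 1 to 19, X and Y), and each H3K27ac condition had 1 list for both of its replicates (104437 regions in CD and 75482 in DMSO). A difference between CD and DMSO therefore has no replicate error and no test, and without read counts in the lists their depth is unknown. No library from untagged cells was analysed here, so the background of the Flag antibody is not known. A Flag-Rxra peak was called shared when a replicate 1 peak overlapped a replicate 2 peak by at least 1 bp. The fold of a peak is the authors' enrichment over the background of their peak caller, and −log10 q is its significance in the same output. The Flag-Rxra lists begin at a −log10 q of 5.00 and the H3K27ac lists at 1.00. For the labelled cell type, 5 of 10 fibroblast markers had an H3K27ac region within 1 kb of an end in CD (38.3% of all genes). In DMSO 4 of 10 did (35.8%). Col1a1, Col1a2, Postn and Thy1 had none there in either list. Of the 5 markers each for 6 other cell types, 0 to 3 were marked in CD and 0 to 3 in DMSO. Macrophage genes were at 2 and 0, keratinocyte and epithelial genes at 3 and 1, and endothelial genes at 1 and 3. The part of other cells in the values below was not tested.

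Shared Flag-Rxra peaks lay within 1 kb of a gene end at 6 of the 10 genes, namely Mtrex, Skiv2l, Dis3l, Wdr61, Zcchc7 and Zfc3h1, where the background over all protein-coding genes was 32.6%. Dis3, Zcchc8 and Rbm7 had a peak there that the replicates did not share, and Ttc37 had none in either replicate. In at least 1 replicate, 9 of 10 had a peak (background 49.5%). By replicate, 8 of the 10 had a peak within 1 kb in replicate 1 (background 41.7%) and 8 in replicate 2 (42.1%). Within 2.5 kb the shared count was 7 of 10 (37.0%) and within 50 kb it was 10 of 10 (68.1%). Of the 10 genes, 7 have an end of another protein-coding gene within 1 kb of their own, against 24.8% of all genes. Among all genes with such a neighbour, 53.7% had a shared peak within 1 kb, and among the 7 members 4 did. Among genes with an H3K27ac region within 1 kb in either condition the background was 50.6%, and 6 of 9 such members were bound. Read against genes with these properties, the count of bound members stands closer to the background than against all genes. With an overlap of 50% of both peaks in place of 1 bp, 3 members were left (Skiv2l, Wdr61 and Zfc3h1), against 20.2% of all genes.

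**Figure D1:**
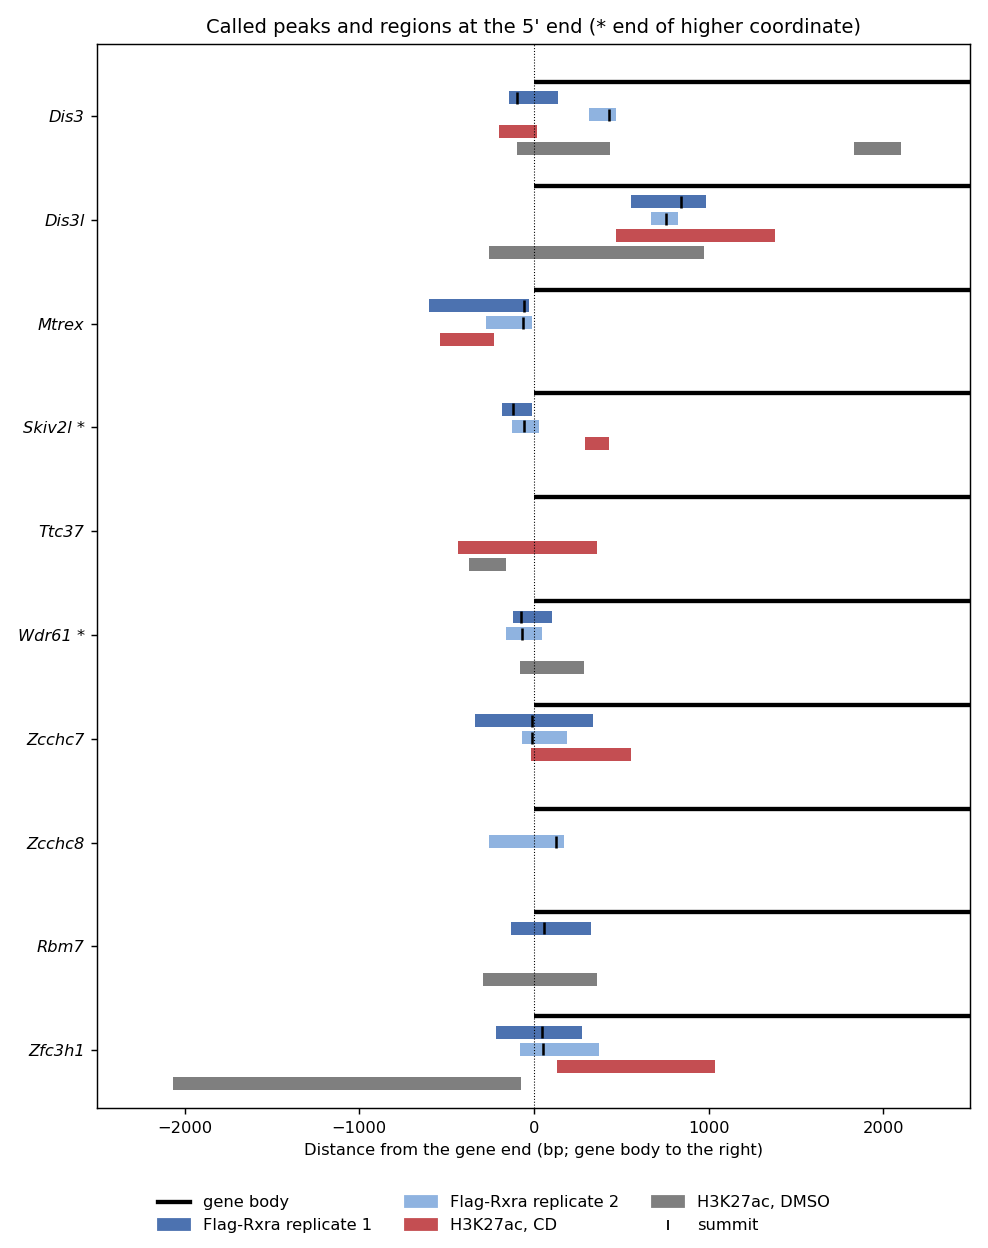
Called peaks and regions within 2500 bp of 1 end of each gene, drawn by distance in bp with the gene body (black) to the right. The end is the annotated 5′ end, or, for Skiv2l and Wdr61 (asterisk), the end of higher coordinate. Bars are Flag-Rxra peaks of replicate 1 (dark blue) and replicate 2 (light blue) with the summit as a tick, and H3K27ac regions in CD (red) and DMSO (grey). Bars of both replicates coincide at 6 genes, are apart at Dis3, and are missing at Ttc37.

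Mtrex, the nuclear exosome helicase (chr13:112867780-112927380, minus strand), had a shared peak just before its start. The replicate 1 peak (chr13:112927410-112927981) had a fold of 12.2, higher than 76.5% of the peaks in its list, and the replicate 2 peak (chr13:112927390-112927652) had a fold of 18.7, higher than 87.1%. The summits lay 58 and 62 bp before the start, 4 bp apart, where all pairs of overlapping peaks had a median offset of 61.0 bp. An end of Dhx29, which encodes a helicase of translation initiation, is 300 bp away, so the peak cannot be given to Mtrex alone. Both summits and the replicate 2 peak lay in the gap between the genes, and 302 of the 572 bp of the replicate 1 peak lay inside Dhx29. The sequence from RefSeq (GRCm38.p6) of the 250 bases before the start covers both summits, and the capitals mark the bases from 5 before the one to 5 after the other, read on the strand of the gene (chr13:112927381-112927630, minus strand).
Mtrex: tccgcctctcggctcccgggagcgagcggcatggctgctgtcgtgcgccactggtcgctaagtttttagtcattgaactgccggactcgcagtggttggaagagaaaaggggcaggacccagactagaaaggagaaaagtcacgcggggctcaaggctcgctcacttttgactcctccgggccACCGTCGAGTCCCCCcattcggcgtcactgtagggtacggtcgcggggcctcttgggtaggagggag
In CD an H3K27ac region (chr13:112927611-112927920, −log10 q of 1.99) lay 173 bp from the replicate 1 summit, with 241 of its 310 bp inside Dhx29, and none lay within 1 kb of an end in DMSO.

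Skiv2l, the helicase of the Ski complex (chr17:34839226-34850204), had the largest ratio of replicate 2 to replicate 1 fold among the 6 genes, 2.16. The peak at its end of higher coordinate had a fold of 7.45 in replicate 1 (chr17:34850215-34850388), higher than 30.9% of that list, and of 16.1 in replicate 2 (chr17:34850172-34850330), higher than 79.0%. The summits lay 120 and 58 bp outside the gene. They fell in the 187 bp between Skiv2l and Nelfe, a subunit of the factor that pauses RNA polymerase II. Replicate 1 had additional peaks beyond the other end, around the decapping gene Dxo, with folds of 10.5 and 5.40 and summits 2539 and 1861 bp from Skiv2l, and replicate 2 had none there. H3K27ac was called in CD inside the gene, 352 bp from the replicate 2 summit (−log10 q of 1.41), and not within 1 kb in DMSO.

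Among the nucleases, Dis3, which cuts RNA in the nuclear exosome (chr14:99076634-99099780, minus strand), had a peak in each replicate that did not overlap. Replicate 1 had a fold of 13.4 with its summit 95 bp outside the end (chr14:99099641-99099920), and replicate 2 had a fold of 13.4 with its summit 430 bp inside it (chr14:99099311-99099465). The peaks were 175 bp apart. The overlapping gene Pibf1 has its lower end 74 bp from the replicate 2 summit, so the nearest gene end was that of Dis3 in replicate 1 and that of Pibf1 in replicate 2. H3K27ac regions of the conditions were offset in the same interval, with 114 bp in common. The CD region (chr14:99099761-99099982, −log10 q of 2.15) held the replicate 1 summit, and the DMSO region (chr14:99099342-99099874, −log10 q of 1.46) held the replicate 2 summit and ended 1 bp short of the other.

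Dis3l, the cytoplasmic exosome nuclease (chr9:64306756-64341403, minus strand), had the weakest of the 6 shared peaks in replicate 2. Its folds were 7.82 (chr9:64340419-64340847) and 8.05 (chr9:64340580-64340732), higher than 35.6% and 28.1% of the peaks in their lists. RefSeq gives 2 starts for this gene among the promoter sequences, and the replicate 1 summit lay 103 bp before the downstream one while the replicate 2 summit lay 126 bp after the upstream one. An H3K27ac region covered both summits in CD (910 bp wide, −log10 q of 2.01) and in DMSO (1230 bp wide, −log10 q of 1.48). It was the only one of the 10 genes at which both replicate summits lay inside a region of both conditions.

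The partners of Skiv2l differed from each other. Wdr61, a WD-repeat protein of the Ski complex that also belongs to the PAF1 transcription elongation complex (chr9:54717153-54734549), had a shared peak at its end of higher coordinate. The folds were 12.7 (chr9:54734446-54734666) and 18.5 (chr9:54734501-54734706), with summits 72 and 67 bp outside the gene. H3K27ac was called over these summits in DMSO (chr9:54734262-54734630, −log10 q of 2.10), and the nearest CD region was 3390 bp from the replicate 1 summit. Ttc37, the scaffold of the Ski complex (chr13:76098705-76190318, plus strand), had no peak within 2.5 kb of an end in either replicate. An H3K27ac region covered its start in CD (801 bp wide, chr13:76098268-76099068, −log10 q of 1.19). Its start is 45 bp from Arsk, a lysosomal sulfatase gene that ends at chr13:76098660. The CD region thus ran from inside Arsk into Ttc37. The DMSO region nearest to the start (215 bp wide, chr13:76098334-76098548, −log10 q of 1.52) lay inside Arsk and stopped short of Ttc37. The shared peaks nearest to the Ttc37 start lay 24.6 kb inside the gene, with folds of 8.92 and 15.0, and 34.5 kb upstream inside Arsk, with folds of 12.4 and 24.0. A DMSO region covered the peak inside Ttc37 (−log10 q of 2.73), and the CD list had none over it.

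Zcchc7, the RNA-binding subunit of TRAMP (chr4:44756558-44932215, plus strand), had the highest replicate 2 fold of the 6 genes and the summits closest to a gene end. The folds were 12.8 in replicate 1 (chr4:44756221-44756895) and 25.2 in replicate 2 (chr4:44756489-44756747), higher than 80.3% and 96.5% of the peaks in their lists. The summits lay 8 and 10 bp outside the gene, 2 bp apart. Unlike Mtrex, Zcchc7 has no other gene end within 1 kb. Its promoter sequence is shown for the same window, with capitals around the summits (chr4:44756309-44756558, plus strand).
Zcchc7: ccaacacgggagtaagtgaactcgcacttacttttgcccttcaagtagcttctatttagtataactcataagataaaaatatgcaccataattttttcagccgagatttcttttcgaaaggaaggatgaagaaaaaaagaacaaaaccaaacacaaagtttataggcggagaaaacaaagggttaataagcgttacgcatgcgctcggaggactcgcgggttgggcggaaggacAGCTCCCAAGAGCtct
This window with the 50 bases after the start had the lowest GC content of the member promoters (46.0%), below the median of all promoters (56.3%). The start of a CD region held both summits (chr4:44756544-44757113, −log10 q of 1.48). The nearest DMSO region was 11052 bp away.

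The NEXT subunits Zcchc8 and Rbm7 had a peak at the start in different replicates. At Zcchc8, the scaffold of NEXT (chr5:123698302-123721044, minus strand), replicate 2 had a fold of 9.97 with its summit 127 bp inside the gene, and replicate 1 had no peak there. At Rbm7, its RNA-binding subunit (chr9:48488697-48495330, minus strand), replicate 1 had a fold of 11.7 with its summit 57 bp inside the gene, and replicate 2 had no peak there. The Rbm7 start is 13 bp from Gm5617. The strongest shared peak of all 10 genes in replicate 2 lay in Zcchc8, 2.66 kb inside its 3′ end (chr5:123700517-123701021 in replicate 1 and chr5:123700733-123701008 in replicate 2). Its folds were 15.6 and 29.4, higher than 91.4% and 98.6% of the lists, and its summits were 3 bp apart. The H3K27ac region nearest to the replicate 1 summit was 1939 bp away in CD and 5378 bp away in DMSO. Neither condition had a region within 2.5 kb of the ends of Zcchc8. Rbm7 had a DMSO region at its start (chr9:48494966-48495622, −log10 q of 1.58), and no CD region within 2.5 kb.

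Zfc3h1, the zinc finger protein that links the helicase to polyadenylated nuclear RNA (chr10:115384799-115432772, plus strand), had a shared peak that straddled its annotated end. The folds were 9.64 (chr10:115384580-115385072) and 19.3 (chr10:115384717-115385173), and the summits lay 48 and 51 bp inside the gene, 112 and 109 bp before the start used in the promoter sequences. An end of Thap2, a gene of the THAP zinc finger family, lies 364 bp away. H3K27ac lay on opposite sides of the summits in the conditions. The DMSO region (chr10:115382735-115384725, −log10 q of 1.62) stopped 122 bp before the replicate 1 summit, on the side of Thap2, and the CD region (chr10:115384933-115385836, −log10 q of 1.80) began 86 bp after it, in Zfc3h1.

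Motifs were searched on both strands in the 9 RefSeq promoters (250 bases before to 50 after a start) of the 8 genes matched there by gene identifier. The nuclear receptor hexamer AGGTCA, which RXR and its partners recognise in pairs, was found at Dis3 and Rbm7, in 2 of 9 promoters against 14.7% of 21263 promoters of protein-coding genes and 11.9% of those whose gene had a shared peak. Neither Dis3 nor Rbm7 had a shared peak at the start, but each had a replicate 1 peak there. The Dis3 hexamer (chr14:99099760-99099765) lay inside that peak, and the Rbm7 hexamer (chr9:48495496-48495501) lay outside the Rbm7 peak (chr9:48495003-48495463). A direct repeat of AGGTCA with 1 base between the copies (DR1) was in 0 of 9 and in 0.0470% of all promoters, and one with 4 bases between (DR4) was in 0 of 9 and in 0% of all. The ETS letters CCGGAA were in 4 of 9 (18.7% of all and 29.9% of those of bound genes), at Dis3, Rbm7, Zcchc7 and Zfc3h1. GGGCGG of SP factors was in 5 of 9 (46.2% and 67.4%) and CCAAT of NFY in 2 of 9 (38.2% and 42.5%). The NRF1 palindrome, spelled out in capitals at Ttc37 below, was in 1 of 9 (1.33% and 2.45%). TGANTCA of AP-1, CACGTG of the E-box and the YY1 motif were in 0 of 9 (6.99%, 7.84% and 0.889% of all). None of these motifs overlapped another at the members. The member promoters had a median of 25.0 CpG, against 13.0 for all promoters, and of all promoters with at least that many CpG 55.7% belonged to a gene with a shared peak, against 34.0% of all promoters. Short stretches of 30 bases show the hexamer at Dis3 (chr14:99099748-99099777, minus strand) and Rbm7 (chr9:48495484-48495513, minus strand) and the NRF1 letters at the unbound Ttc37 (chr13:76098659-76098688, plus strand) in capitals (at Dis3 the hexamer reads on the opposite strand), and the base of the replicate 1 summit in capitals at Zfc3h1 (chr10:115384832-115384861, plus strand) and Dis3l (chr9:64340546-64340575, minus strand), each on the strand of its gene.
Dis3: ttctcgcgagagTGACCTcaccagccagcg
Rbm7: cggcggcgccgcAGGTCActccagcccgcg
Ttc37: ccaagggcagGCGCATGCGCaaaaaccaat
Zfc3h1: caccgcggcggacatGggggtgggcgcttc
Dis3l: agccgggagcggcccTggagcgtccccggt
A match is a run of letters and does not show that a factor sits there.

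Within 50 kb of the ends of the 10 genes, replicate 1 had 28 peaks and replicate 2 had 39, of which 16 in each were shared. That is 57.1% of the replicate 1 peaks (62.4% over the whole list) and 41.0% of the replicate 2 peaks (40.5%). Fold was higher in replicate 2 for 14 of the 16 pairs, as it was for 80.2% of all 18671 pairs. The exceptions were the peak 35.6 kb from Skiv2l, with folds of 12.9 and 12.4, and the peak 44.6 kb from Rbm7, where both folds rounded to 17.3. Of the 16 pairs, 6 were the peaks within 1 kb, 1 was the peak in Zcchc8, and 9 lay farther away. Of these 9, 4 had the end of another gene inside the replicate 1 peak: Bora, 30.3 kb from Dis3; Kntc1, a spindle checkpoint gene, 28.6 kb from Zcchc8; Rexo2, an oligoribonuclease gene, 8.03 kb from Rbm7; and Tmem19, 22.4 kb from Zfc3h1. The Tmem19 peak had folds of 18.6 and 23.5, and the Rexo2 peak 15.5 and 16.1. Of the 16 shared peaks, 5 overlapped a CD region (26.9% of all 17623 shared peaks did), 7 a DMSO region (34.4%) and 6 neither (54.1%).

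**Figure D2:**
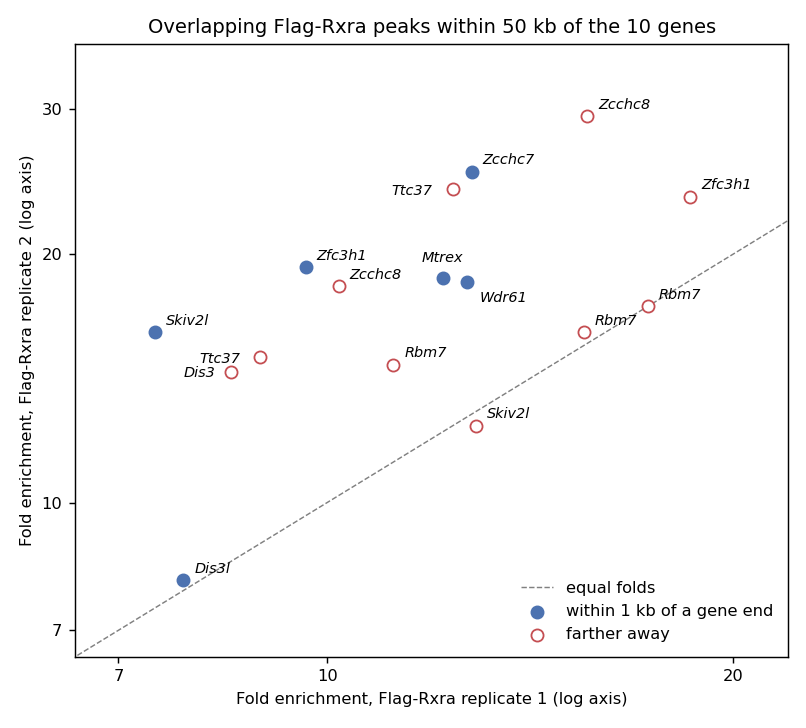
Fold enrichment in Flag-Rxra replicate 1 (x axis) and replicate 2 (y axis), both on log axes, for the 16 overlapping pairs within 50 kb of the 10 genes. Filled points lie within 1 kb of a gene end, open points farther away, and the dashed line marks equal folds. 14 of the 16 points lie above the line, with Zcchc8 highest at 15.6 and 29.4.

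H3K27ac at the gene ends was called at slightly more members in CD than in DMSO, and the sets of genes differed. A region lay within 1 kb of an end at 7 of 10 genes in CD (background 38.3%) and at 6 of 10 in DMSO (35.8%). Dis3, Dis3l, Ttc37 and Zfc3h1 were marked in both conditions (21.2% of all genes), Mtrex, Skiv2l and Zcchc7 in CD only (17.1%), Wdr61 and Rbm7 in DMSO only (14.7%), and Zcchc8 in neither (47.0%). The 9 CD regions there had −log10 q of 1.19 to 2.15 and the 7 DMSO regions 1.27 to 2.10, close to the start of the lists. Among regions that reach a −log10 q of 2, 3 members kept a CD region, namely Dis3, Dis3l and, at its 3′ end, Ttc37 (6.65% of all genes), and Wdr61 alone kept a DMSO region (8.84%). Of the 5 genes marked in 1 condition only, Wdr61 was thus the 1 left at that threshold, with Mtrex just under it at 1.99.

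Counting covered bases within 2.5 kb of the ends, no common direction was seen. A gene was called higher in a condition when that list covered at least 2 times the bases of the other and at least 200 bases more. By this rule 3 genes were higher in CD (Skiv2l, Ttc37 and Zcchc7; background 21.6%) and 3 in DMSO (Wdr61, Rbm7 and Zfc3h1; 19.2%). The CD list covered 1010 bases at Ttc37 and the DMSO list 215, and at Zcchc7 the values were 766 and 0. At Ttc37 all of the DMSO bases and part of the CD bases lay inside Arsk. Rbm7 had 0 bases in CD and 1021 in DMSO, Wdr61 had 0 and 861, and Zfc3h1 had 904 and 1991. The DMSO bases at Zfc3h1 came from a region outside the gene that overlaps Thap2, and the CD bases from a region inside Zfc3h1. Skiv2l had 654 and 291, mostly from a CD region beyond its lower end that overlaps Dxo. Dis3 (453 and 798), Dis3l (910 and 1230) and Mtrex (310 and 223) did not reach the rule, and Zcchc8 had 0 in both. By any difference, 4 genes had more in CD (35.8% of all genes) and 5 more in DMSO (32.1%). The median of the 10 genes was 554 bases in CD and 544 in DMSO, where the medians over all genes were 169 and 0. When a −log10 q of 2 was required, Skiv2l, Zcchc7, Mtrex, Rbm7 and Zfc3h1 had no difference left. More bases in CD were then found at 3 genes (9.69% of all genes), namely Dis3l (910), Dis3 (222) and Ttc37 (209), and more in DMSO at Wdr61 alone (11.8%). Dis3 and Dis3l had more bases in DMSO without that threshold.

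Farther out, from 2.5 to 50 kb from the ends, the CD list covered more bases at most members. With at least 2 times the bases and at least 500 more, 5 genes were higher in CD, namely Mtrex, Wdr61, Zcchc7, Dis3l and Rbm7 (background 18.4%), and 0 were higher in DMSO (4.52%). Mtrex had 4938 bases in CD and 777 in DMSO, a difference above that of 99.0% of all genes. This difference cannot be given to Mtrex alone, since its windows hold parts of other genes. Plpp1 (chr13:112800777-112867894) overlaps Mtrex, with an end 114 bp from that of Mtrex. All 777 DMSO bases lay inside Plpp1, and the CD bases were spread over Plpp1, Mtrex and Dhx29. Wdr61 had 5755 and 2690 (above 96.1%), Zcchc7 had 2909 and 595 (90.9%), Dis3l had 2531 and 850 (83.2%), and Rbm7 had 1743 and 635 (72.9%). Zfc3h1, with 3320 and 1811, stayed under the 2-fold rule, as did Ttc37 with 1671 and 1165. Skiv2l (2541 and 2334) and Zcchc8 (3197 and 3147) were almost level, and Dis3 (3019 and 3554) had more in DMSO. By any difference, 9 of 10 genes had more bases in CD (59.4% of all genes) and 1 more in DMSO (30.7%). The median difference, CD minus DMSO, was 1308 bases for the 10 genes and 262 for all genes. The windows at the ends of a shorter gene overlap and hold fewer bases in all, and genes were not matched by length. The CD list covers more of the genome, at 37.3 Mb against 31.1 Mb. When it was shortened to its strongest regions so that the covered lengths matched, 5 members were still higher in CD (12.6% of all genes) and 0 in DMSO (8.75%). By any difference 9 then had more in CD (47.0%) and 1 more in DMSO (41.3%), and the median difference was 1098 bases against 0 for all genes. By the 2-fold rule this did not hold for the stronger regions alone: when a −log10 q of 2 was required, 3 members were higher in CD (11.9%) and 3 in DMSO (15.4%). By any difference 6 then had more in CD (34.2%) and 4 more in DMSO (36.9%), and the median difference was 288 bases against 0 for all genes. At that threshold the difference, CD minus DMSO, was 976 bases at Zcchc7, 666 at Dis3l, 616 at Wdr61, 510 at Zcchc8, 432 at Mtrex and 144 at Zfc3h1, so that Mtrex no longer reached the 500 bases of the rule. It was -1057 at Dis3, -681 at Ttc37, -539 at Skiv2l and -154 at Rbm7.

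**Figure D3:**
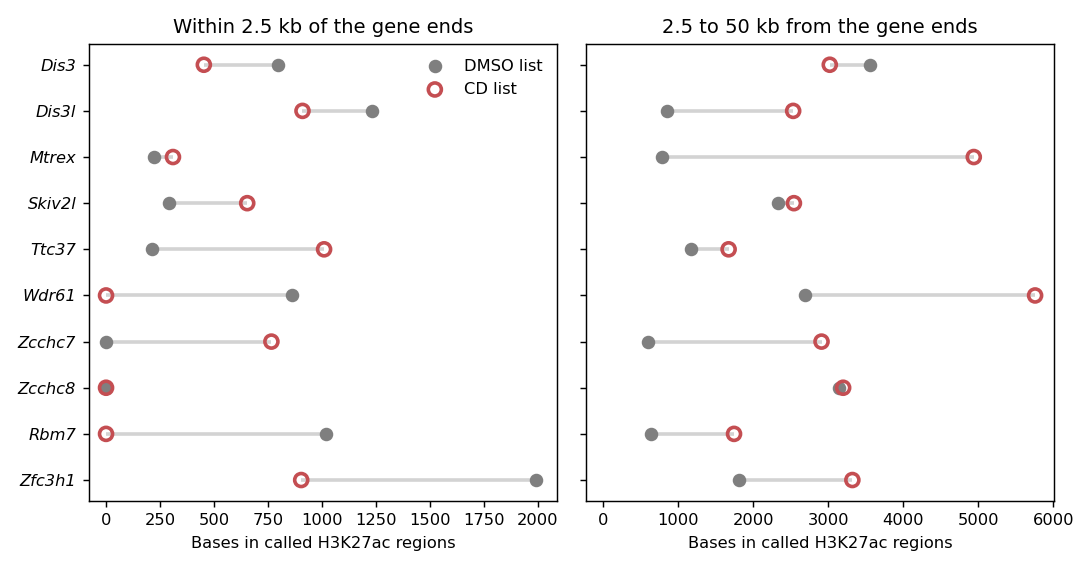
Bases covered by called H3K27ac regions at each gene in the CD list (red circles) and the DMSO list (grey points), within 2.5 kb of the gene ends (left) and from 2.5 to 50 kb (right). On the left neither list is ahead as a rule, and on the right the CD circle lies to the right of the DMSO point at 9 of 10 genes, most at Mtrex (4938 against 777 bases).

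**Figure D4:**
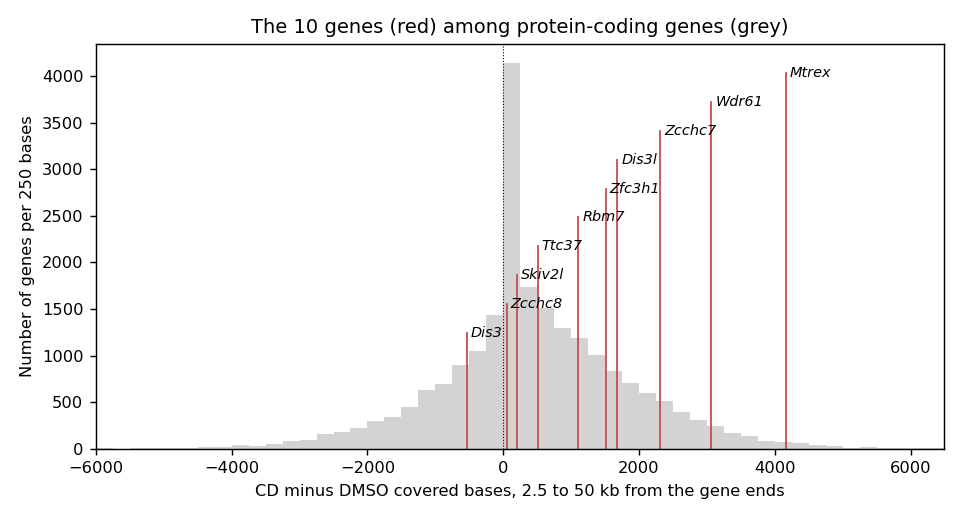
Histogram of the CD minus DMSO difference in covered bases from 2.5 to 50 kb for 21887 protein-coding genes (grey, 250 bases per bar, genes with no difference in the bar that begins at 0), with the 10 genes as red lines whose heights only separate the names. Dis3 lies left of 0 and Mtrex, at 4161 bases, lies above 99.0% of all genes. The bases counted for Mtrex include those inside Plpp1 and Dhx29.

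The regions behind these sums were many and weak. Within 50 kb the CD list had 103 regions at the 10 genes and the DMSO list 60, a ratio of 1.72 where the whole lists gave 1.38. Their median folds were 3.16 and 3.10 and their median widths 263 and 328 bp. Of the CD regions, 13.6% overlapped a DMSO region (13.9% over the whole list), and of the DMSO regions 23.3% overlapped a CD region (19.2%). Mtrex had 18 CD regions and 5 DMSO regions, with regions inside Plpp1 and Dhx29 among them, and only 1 of each overlapped. Zcchc7 had 9 and 2, with no overlap. Wdr61 had 15 and 10, and Dis3 had 9 and 11.

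The wider surroundings separated Mtrex from Zcchc7 and Rbm7. Within 50 kb of the ends, near bases included, the ratio of CD to DMSO covered bases was 5.25 at Mtrex, and from 50 to 500 kb it was 0.966 (26885 and 27832 bases). The bases within 50 kb of Mtrex include those inside Plpp1 and Dhx29. Over all genes the median ratio from 50 to 500 kb was 1.21. Within 50 kb the medians over all genes were 3043 bases in CD and 2482 in DMSO. At Zcchc7 the ratio was 6.18 within 50 kb and 2.70 beyond (17939 and 6638 bases), so the CD list was ahead in both windows. At Rbm7 the lists were almost level within 50 kb (1743 and 1656 bases, a ratio of 1.05). Beyond 50 kb the ratio at Rbm7 was 1.87 (14810 and 7906 bases). Wdr61 (1.62 within and 0.791 beyond) and Ttc37 (1.94 and 0.856) were above 1 near the gene and below 1 beyond, and Dis3 was 0.798 and 1.00. The median folds of the regions within 50 kb were 3.22 in CD and 3.10 in DMSO at Mtrex, and 3.18 and 3.03 at Zcchc7. Only regions past the threshold of the lists have a fold, so these medians say nothing on the mark outside them.

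**Figure D5:**
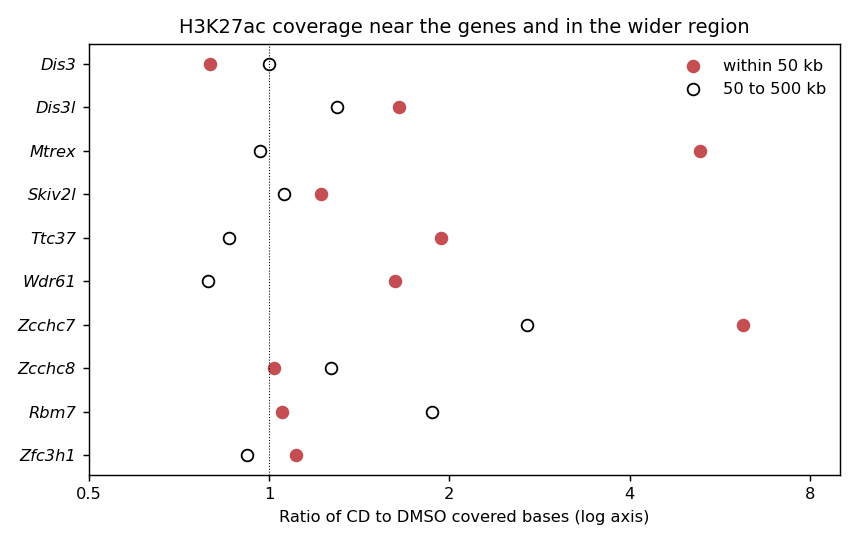
Ratio of CD to DMSO bases covered by H3K27ac regions (log axis) at each gene, within 50 kb of its ends (filled red) and from 50 to 500 kb (open). At Mtrex the ratio is 5.25 near the gene and 0.966 beyond, and at Zcchc7 it is above 2 in both windows.

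Other genes of the pathway were described the same way, in lists by function. Of the 10 core subunits Exosc1 to Exosc10, 8 had a shared Flag-Rxra peak within 1 kb. Of 21 further genes, the TRAMP polymerases Tent4a and Tent4b were 2 of 2, the cap-binding group (Srrt, Zc3h18, Ncbp1, Ncbp2 and Ncbp3) was 4 of 5, the PAXT partners (Pabpn1, Zc3h3, Rbm26 and Rbm27) were 2 of 4, and the core-associated C1d and Mphosph6 were 1 of 2. The nucleolar and NRDE2 partners (Nvl, Nop53 and Nrde2) were 0 of 3, the ribosome rescue factors Hbs1l and Pelo 1 of 2, and the nucleases outside the exosome (Dis3l2, Xrn1 and Xrn2) 1 of 3. Together 19 of these 31 genes were bound, beside 6 of the 10 members and 32.6% of all genes. Of the 10 core subunits, 9 have a neighbouring gene end within 1 kb, and 7 of these 9 were bound (background 53.7%). Among core subunits with an H3K27ac region within 1 kb in either condition, 8 of 9 were bound (background 50.6%). The 21 further genes were not set beside such backgrounds, so their counts stand only beside the share of all genes. Rbm27 had folds of 19.8 and 28.1 and Pabpn1, the nuclear poly(A)-binding protein, 18.4 and 25.2, where the highest folds of the 6 bound members were 12.8 and 25.2, both at Zcchc7. From 2.5 to 50 kb, 24 of the 31 genes had more H3K27ac bases in CD (59.4% of all genes) and 7 more in DMSO (30.7%). By the 2-fold rule 7 were higher in CD (18.4%) and 2 in DMSO (4.52%). With covered lengths matched, 20 of the 31 had more in CD (47.0%) and 11 more in DMSO (41.3%), and 2 were higher in CD (12.6%) and 3 in DMSO (8.75%) by the 2-fold rule. For the 10 core subunits the counts went from 7 and 3 to 5 and 5. At a −log10 q of 2 or more, 16 of the 31 had more in CD (34.2%) and 11 more in DMSO (36.9%). By the 2-fold rule 6 were then higher in CD (11.9%) and 7 in DMSO (15.4%). For the core subunits at that threshold the counts were 6 and 3 by any difference, and 3 and 1 by the 2-fold rule. Without matching, Tent4a, Tent4b and Zc3h3, with CD minus DMSO differences of 3296, 3036 and 4201 bases, were among those with more in CD, while Nrde2 (-3068) and Exosc6 (-2549) had more in DMSO.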

How the data were processed

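CUT&Tag peak lists of 6 samples in 3 groups of 2 were used. Per the submitters' processing notes, the tools were MACS2 2.1.2, deepTools 3.4.3, fastp 0.20.1 and Bowtie2 2.2.5, with build mm10. The sources used here do not say whether replicates were pooled or a control entered. The deposited fold is the ratio of a peak to the authors' background, and the −log10 q is likewise the authors' deposited value. Peaks outside chromosomes 1 to 19, X and Y (42 to 126 a list) were dropped. Genes, strands and promoter sequences came from RefSeq GRCm38.p6, with no exon or intron class. Windows ran the stated distance either side of both annotated ends, and parts of windows that overlapped were counted once. Covered bases are called bases, so they move with how much was called, and the depth is unknown. The interval functions were tested on simulated data (pandas 2.3.3, numpy 2.4.6, Python 3.11.15, matplotlib 3.10.9). No test was made, since each H3K27ac condition had 1 list; counts stand beside the share of all genes. All 10 genes were named by rule, along with genes whose end lies within 1 kb of theirs or inside a printed peak and those of the pathway lists. The members and lists were chosen with earlier results of these data known.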

Additional observations from a re-analysis of the deposited data

How the results depend on the processing

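Of the counts of members with a Flag-Rxra peak, those within 1, 2.5 and 50 kb were 6, 7 and 10. With an overlap of 50% of both peaks they were 3, 4 and 6 (20.2%, 23.8% and 57.5% of all genes). With annotated starts only, which leaves 8 members, the 2.5 kb count was 4 (36.3%). Without replicate 1 the counts were 8, 8 and 10 (42.1%, 50.4% and 81.8%), and without replicate 2 they were 8, 9 and 10 (41.7%, 47.4% and 75.9%), so the shares of all genes rose too. The other settings kept them within 1.5 times. Members with an H3K27ac region within 1 kb numbered 3 in CD and 1 in DMSO at a −log10 q of 2 or more, and 0 in each at 5 or more, where 0.155% and 0.151% of all genes were left. Members higher in CD within 2.5 kb numbered 3 (21.6%), again 3 but with Dis3 and Dis3l in place of Skiv2l and Zcchc7 at 2 or more (6.33%), and 0 at 5 or more (0.0959%). From 2.5 to 50 kb they numbered 5 (18.4%), and 3 at 2 or more (11.9%), 0 at 5 or more (0.498%), 3 of 8 with annotated starts only (19.4%) and 9 by any difference (59.4%). The values of the pathway lists and of the 2.5 kb differences under other settings were added after seeing the data. Some CD minus DMSO differences changed sign at a −log10 q of 2 or more. From 2.5 to 50 kb, Rbm7 went from 1108 to -154 bases, Skiv2l from 207 to -539 and Ttc37 from 506 to -681. Within 2.5 kb, Dis3 went from -345 to 222 bases and Dis3l from -320 to 910. Why these values moved was not tested. A stricter threshold leaves fewer regions, and a missing strand leaves fewer genes. Matching covered lengths, weighting bases by fold and including the gene body left the count of 5 unchanged. No paired analysis was possible because the 2 replicates of an H3K27ac condition came as a single list and the Flag-Rxra samples have no second group. With weak regions and unknown depth, a missing region is not evidence that the mark is absent.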

Other observations

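The strongest H3K27ac regions within 50 kb of any of the 10 genes began 2758 bp beyond the 3′ end of Zfc3h1, at the same place in both conditions. The CD region (chr10:115435530-115436078) had a −log10 q of 7.15 and the DMSO region (chr10:115435530-115436082) one of 14.0. A Flag-Rxra peak of replicate 2 alone lay in them, with a fold of 5.78, higher than only 4.88% of the peaks in its list. No other region within 50 kb of the 10 genes reached a −log10 q of 5 in either list. This place was picked out after its values were seen.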
